A study of Mus musculus with 4 samples.

Results

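Kit, Cd34, Gata1, Gata2, Meis1, Pf4, Ppbp, Itga2b and Itgb3 are genes of blood stem and progenitor cells and of megakaryocytes, the bone marrow and spleen cells that shed platelets. These 9 genes, of 35798 named genes measured, were selected by symbol from known biology. Their expression (CPM) in the wild-type and TNFR2 KO RNA-seq libraries had already been seen. The difference between genotypes is therefore given for them as a description and without a test. All 9 passed the filter on low counts that left 13822 genes for testing. The data were 4 RNA-seq libraries of Ly49H+ NK cells sorted from the spleen on D3.5 after MCMV infection, when NK cells bearing the activating receptor Ly49H respond to the viral protein m157. Wild-type libraries (n = 2) held CD45.1 Ly49H+ cells and TNFR2 KO libraries (n = 2) held CD45.2 Ly49H+ cells from donors that lack TNFR2, a receptor for TNFα, in every cell. Both kinds of donor cell shared NSG hosts, which were infected a day after the transfer. Each library came from a pool of 3 hosts, with a wild-type and a TNFR2 KO library sorted from each of the pools. Mice in the study were 6 to 12 weeks old, and the donor numbers are not given in the sources used here.

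NSG mice lack mature T, B and NK cells but retain their own blood progenitors, myeloid cells, megakaryocytes and red cell precursors, and as a NOD-derived strain they carry the CD45.1 form of CD45. The effects of genotype, CD45 allele and sort gate cannot be told apart in these libraries. In bulk RNA, fewer cells of a type and less RNA per cell cannot be told apart either. The study describes 1 experiment performed in duplicate, so the spread between duplicates may be technical and p-values compare these pools.

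Kit is the receptor for stem cell factor and CD34 a surface sialomucin, and both mark early blood progenitors. GATA2 maintains stem and progenitor cells and the mast cell lineage, and GATA1 takes over from it in red cell, megakaryocyte, eosinophil and mast cell development. MEIS1 is a homeodomain factor that acts with PBX and HOX proteins in stem cells and megakaryocytes. PF4 (CXCL4) and PPBP (CXCL7) are CXC chemokines stored in platelet alpha granules. Integrin αIIb (Itga2b) pairs with integrin β3 (Itgb3) as the fibrinogen receptor of platelets. Most of these genes serve in more than 1 lineage: Kit, Cd34, Gata1 and Gata2 are also used by mast cells, Kit by some NK cell precursors, and Itgb3, which also pairs with integrin αv, by many cell types.

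In GENCODE M21 on GRCm38 (mm10), Kit lies on the plus strand of chromosome 5 (75574916 to 75656722). Ppbp (90768518 to 90770063) and Pf4 (90772435 to 90773383) lie further along the same strand, only 2372 bases apart in a cluster of CXC chemokine genes. Cd34 lies on the plus strand of chromosome 1 (194938819 to 194961279), Gata2 on the plus strand of chromosome 6 (88193891 to 88207032) and Gata1 on the minus strand of chromosome X (7959260 to 7978071). Chromosome 11 carries Meis1 (18879817 to 19018985) and Itga2b (102453297 to 102470122) on the minus strand and Itgb3 (104608000 to 104670476) on the plus strand, the integrin genes 2137878 bases apart. Of the transcript sequence of Meis1, cut into stretches of 31 bases, 17.6% also occurs in transcripts of other genes, mainly of models that overlap it, so its count is less certain; for Cd34 the share is 4.97% and for the other 7 genes under 0.38%.

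The sequences before the start sites of Pf4 and Ppbp, which stand side by side, and of Gata1 and Gata2, which belong to a single family, are shown because these genes were all lower in TNFR2 KO libraries but to different extents. They are the 250 bases before the RefSeq start site on the gene's strand in GRCm38.p6, none of them in a GENCODE exon of the gene itself. Exons of other genes were not checked. The windows are chr5:90772185-90772434 for Pf4, chr5:90768268-90768517 for Ppbp, chrX:7967911-7968160 (minus strand) for Gata1 and chr6:88193641-88193890 for Gata2. The Gata1 window lies between exons, within the span that GENCODE gives the gene. Capitals mark matches on either strand, of which Gata2 has 0, to the ETS words AGGAAG or CCGGAA, the core bound by ETS factors such as FLI1, and to the E-box words CAGCTG or CAGATG, which TAL1 can bind.
Pf4: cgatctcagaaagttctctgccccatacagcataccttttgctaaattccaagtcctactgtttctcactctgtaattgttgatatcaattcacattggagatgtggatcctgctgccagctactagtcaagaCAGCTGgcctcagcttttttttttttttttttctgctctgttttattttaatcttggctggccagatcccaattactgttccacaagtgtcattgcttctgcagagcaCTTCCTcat
Ppbp: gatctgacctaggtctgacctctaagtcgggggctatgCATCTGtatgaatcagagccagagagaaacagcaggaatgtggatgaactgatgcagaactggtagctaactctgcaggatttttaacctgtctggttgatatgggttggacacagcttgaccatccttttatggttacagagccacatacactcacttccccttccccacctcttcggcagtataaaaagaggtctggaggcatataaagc
Gata1: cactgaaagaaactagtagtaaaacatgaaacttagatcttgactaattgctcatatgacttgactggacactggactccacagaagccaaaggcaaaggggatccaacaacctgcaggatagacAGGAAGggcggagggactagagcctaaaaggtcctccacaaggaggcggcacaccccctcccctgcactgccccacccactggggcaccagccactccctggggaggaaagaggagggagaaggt
Gata2: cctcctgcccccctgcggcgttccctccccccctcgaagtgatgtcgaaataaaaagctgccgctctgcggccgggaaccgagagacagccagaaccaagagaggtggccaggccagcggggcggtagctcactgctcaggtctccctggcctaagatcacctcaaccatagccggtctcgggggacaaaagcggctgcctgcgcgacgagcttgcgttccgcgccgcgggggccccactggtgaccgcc

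The RefSeq table held start sites for 8 of the 9 genes, all but Itgb3, with 10 windows in all because Kit and Gata2 had more than 1 site. An ETS word stood in 6 of the 8 genes (7 of 10 windows), against 38.2% of all 32851 windows of the same length. The 2 Kit windows overlap almost fully and hold the same match, which is thus counted in both. In Pf4 it ended 4 bases before the start site, and Itga2b held an ETS word at 2 places. An E-box word was found for Pf4, Ppbp and Itga2b (3 of 10 windows, against 25.5% of all windows), the RUNX word TGTGGT for Meis1 (14.1% of all windows) and the MEIS word TGACAG for Itga2b (15.9% of all windows). The GATA words AGATAA and TGATAA were in 0 of the 10 windows and in 16.6% of all windows. A match is a string of letters and not a known site, and its absence says only that these letters are not in this window.

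**Figure D1:**
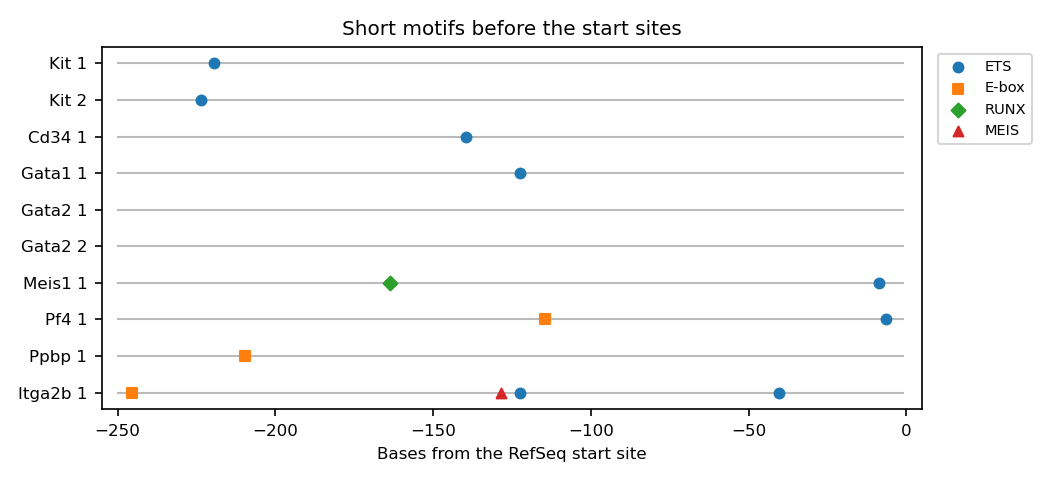
Positions of short motifs on either strand in the 250 bases before the RefSeq start sites of 8 genes; the x axis is the distance from the start site in bases, each grey line is a window and numbers after gene names count a gene's start sites. ETS words appear in 7 of the 10 windows, with the same match in both Kit windows, and neither Gata2 window holds any of the words.

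Tnfrsf1b, the targeted gene, was present at 265 and 268 CPM in wild-type but only 55.1 and 58.6 CPM with TNFR2 KO, a change of -2.23 on the log2 scale (adjusted p = 1.35e-13, edgeR). It was thus lower as the labels have it, although not absent. Library totals ran from 32713054 to 39543464 counts. A gene was called when it changed by more than 1 log2 unit with an adjusted p under 0.05. Across all genes 1627 were called lower (11.8%) and 215 higher (1.56%) in TNFR2 KO. The p threshold alone was passed by 50.4%. Scaling the libraries on 20 NK cell genes in place of TMM, edgeR's default scaling, moved the median change of all genes, on the log2 scale, from -0.003 to -0.69 and the share of lower genes among those called from 88.3% to 98.8%.

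Of the 9 genes, 8 were lower in TNFR2 KO than in wild-type libraries and Itgb3 was nearly level. The 8 genes together measured 130.4 and 126 CPM in wild-type and 11.3 and 10.5 CPM in TNFR2 KO libraries. All 8 passed the thresholds that 11.8% of genes passed in the lower direction, a count from which nothing is read because the genes were picked on this contrast. Their mean expression in TNFR2 KO was between 3.96% (Gata2) and 29.8% (Gata1) of that in wild-type. The median log2-fold change of the 9 genes was -2.47, where the median of all tested genes was -0.003. Nothing is read from this difference in medians either, because of how the genes were picked. In every one of the 18 pairs of duplicates the 95% Poisson intervals of the counts overlapped. For each gene, also for the nearly level Itgb3, the intervals of the wild-type libraries lay apart from those of the TNFR2 KO libraries. These intervals cover counting error only. The share of all genes that lay apart in this way was not computed, so nothing is read from this separation.

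**Figure D2:**
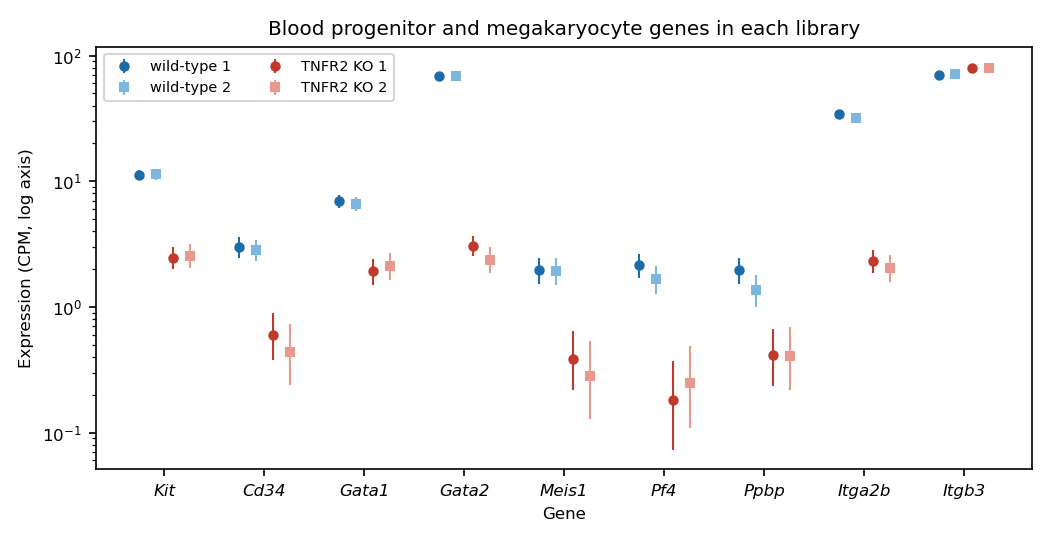
Expression of the 9 genes in each of the 4 libraries; the y axis is CPM on a log scale, points are single libraries and bars are 95% Poisson intervals of the count. The wild-type points lie above the TNFR2 KO points for 8 genes, while Itgb3 sits between 70.1 and 79.2 CPM in all libraries.

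Among the surface receptors, Kit measured 11.3 CPM in both wild-type libraries (427 and 418 counts) and 2.45 and 2.56 CPM in those of TNFR2 KO cells (95 and 82 counts). The genotypes did not overlap, and the log2-fold change was -2.17 (standard error 0.133). Cd34 was rarer, at 2.98 and 2.82 CPM in wild-type and 0.594 and 0.437 CPM in TNFR2 KO libraries, where it rested on 23 and 14 counts. Its log2-fold change of -2.47 (standard error 0.279) lay within the combined error of that of Kit, and the ratio of Kit to Cd34 counts was 3.78 and 4.02 in wild-type and 4.13 and 5.86 in TNFR2 KO libraries. Both receptors were thus low in the TNFR2 KO libraries by a similar factor.

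The transcription factors differed more among themselves. Gata2 was the second most abundant of the 9 genes in wild-type, with 69.1 and 68.4 CPM (2623 and 2524 counts), and measured 3.08 and 2.37 CPM in TNFR2 KO libraries (119 and 76 counts). This was the lowest log2-fold change of the 9, -4.64 (standard error 0.0836), or 25.3-fold lower on the means. Gata1 measured 6.91 and 6.64 CPM in wild-type and 1.91 and 2.12 CPM in TNFR2 KO libraries. On the log2 scale the change was -1.75 (standard error 0.160), the smallest among the 8 lower genes. Gata2 counts were 10.01 and 10.3 times those of Gata1 in the wild-type libraries and 1.61 and 1.12 times in the TNFR2 KO libraries, so the balance between these related factors also differed by genotype. Meis1 was near the limit of detection in TNFR2 KO, with 15 and 9 counts (0.388 and 0.281 CPM), against 74 and 71 counts (1.95 and 1.93 CPM) in wild-type, a log2-fold change of -2.51 (standard error 0.343).

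The platelet chemokines were the least certain, since both rested on few counts. Pf4 had 81 and 61 counts in wild-type (2.13 and 1.65 CPM) and 7 and 8 counts in TNFR2 KO libraries (0.181 and 0.250 CPM), with a log2-fold change of -3.13 (standard error 0.388). Of the 9 genes it alone passed the filter on low counts through its wild-type libraries alone, so a difference was built into its being tested. Ppbp had 74 and 50 counts in wild-type (1.95 and 1.36 CPM) and 16 and 13 counts in TNFR2 KO libraries (0.413 and 0.406 CPM), and its log2-fold change was -2.00 (standard error 0.361). Pf4 counts were 1.09 and 1.22 times those of Ppbp in wild-type and 0.438 and 0.615 times in TNFR2 KO libraries. Per kilobase of transcript, as Pf4 is the shorter, the means in TNFR2 KO were 0.366 CPM for Pf4 and 0.378 CPM for Ppbp and did not differ beyond the spread of Pf4.

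The integrin pair split. Itga2b measured 34.1 and 31.8 CPM in wild-type (1294 and 1174 counts) and 2.30 and 2.03 CPM in TNFR2 KO libraries (89 and 65 counts). On the log2 scale the change was -3.92 (standard error 0.1). Its partner Itgb3 measured 70.1 and 71 CPM in wild-type and 79.2 and 79.1 CPM in TNFR2 KO libraries. The TNFR2 KO values of Itgb3 were the higher ones and did not overlap with wild-type, but the log2-fold change was only 0.17 (standard error 0.0372). It became -0.53 with scaling on NK cell genes, which moved the median of all genes to -0.69. Itgb3 counts were 2.05 and 2.23 times those of Itga2b in the wild-type libraries and 34.4 and 39 times in the TNFR2 KO libraries. Itgav, which encodes the other partner of integrin β3 and is named here after its values were seen, measured 50.8 and 53.5 CPM in wild-type and 73.6 and 73 CPM in TNFR2 KO libraries (log2-fold change 0.49, adjusted p = 1.10e-06, edgeR), and its change was -0.20 with that scaling.

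As CPM per kilobase of the longest coding transcript, which allows levels of different genes to be compared, the wild-type order was Gata2 (19.3), Itgb3 (12.2), Itga2b (9.59), Gata1 (3.56), Pf4 (3.22), Kit (2.15), Ppbp (1.53), Cd34 (1.14) and Meis1 (0.257). Gata1 and Pf4 did not differ beyond the spread of Pf4 (SD 0.578, n = 2), and Ppbp and Cd34 lay about 1 SD of Ppbp apart. In TNFR2 KO libraries Itgb3 stood far above the rest at 13.7 CPM per kilobase, and Gata1 (1.06) came before Gata2 (0.763) and Itga2b (0.630), whose difference was smaller than the SD of Gata2 (0.139, n = 2).

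The 8 lower genes differed in how much lower they were, and so the make-up of their summed counts differed between the genotypes. Gata2 held 53% and 54.3% of these counts in the wild-type libraries and 27.2% and 22.7% in the TNFR2 KO libraries. Kit went the other way, from 8.63% and 9% in wild-type to 21.7% and 24.5% in TNFR2 KO, and Gata1 from 5.30% and 5.27% to 16.9% and 20.3%. Itga2b held 26.2% and 25.3% in wild-type and 20.3% and 19.4% in TNFR2 KO libraries, and the other 4 genes at most 5.25% each in any library.

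**Figure D3:**
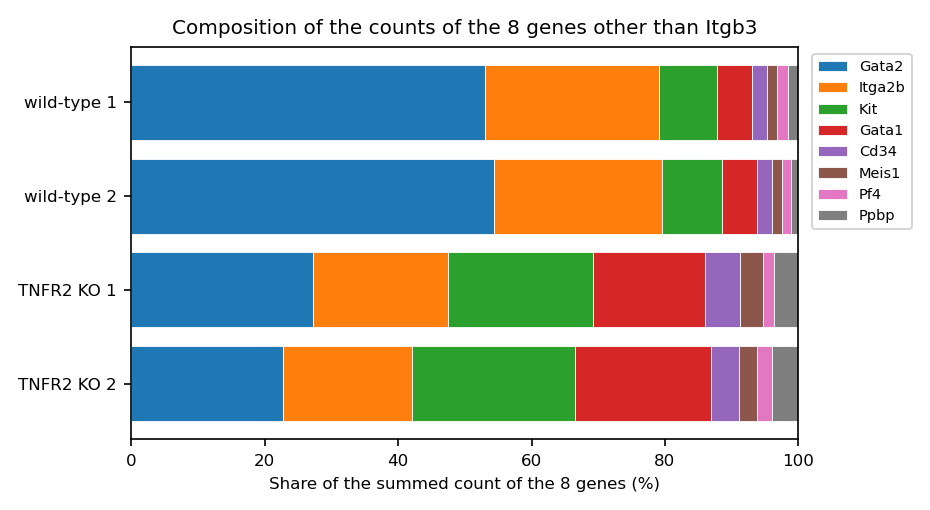
Share of each gene in the summed counts of the 8 genes other than Itgb3, in percent of that sum, with 1 bar per library. Gata2 takes 53% and 54.3% of the bar in wild-type and 27.2% and 22.7% in TNFR2 KO libraries, where Kit and Gata1 take more.

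Other genes of stem and progenitor cells, 36 in a hand-written list of which 30 could be tested, were described beside the 9 genes. By edgeR, with p adjusted over all genes, 16 of the 30 were called lower (11.8% of all genes were) and 0 higher, with 1 higher at an unadjusted p under 0.05 and 0 called higher by DESeq2. The median log2-fold change of the list was -1.57, against -0.003 for all genes. Of the 13 genes with 10 CPM or more in wild-type, 4 were called lower, and of the 17 rarer ones 12 were. In a test limited to genes averaging 10 CPM or more over all libraries, 424 of 8765 genes were called lower. The share of all genes by wild-type level was not computed, so nothing is read from this split. In this list 6 genes passed the filter on low counts through the wild-type libraries alone, and 5 of these were among the genes called.

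Cd93, a C-type lectin-like receptor of progenitors, myeloid and endothelial cells, fell from 80.8 ± 2.22 to 12.9 ± 1.04 CPM (SD, n = 2 each; log2-fold change -2.64, adjusted p = 2.70e-12, edgeR). Lmo2 and Lyl1, partners of TAL1 and GATA factors in the stem cell transcription complex, fell from 30.3 ± 0.495 to 4.74 ± 0.529 CPM (adjusted p = 1.37e-10, edgeR) and from 19.9 ± 0.719 to 3.77 ± 0.299 CPM (adjusted p = 2.23e-09, edgeR), log2-fold changes of -2.67 and -2.39. Adgrg1, which encodes the adhesion receptor GPR56 and is present on stem cells, had a log2-fold change of -3.09 (17.2 and 16.6 CPM in wild-type but 1.81 and 2.18 CPM in TNFR2 KO). The most abundant genes of the list were not called: Ly6a, which encodes the stem cell and lymphocyte antigen Sca-1, had a log2-fold change of -0.53 (-1.22, and called, with scaling on NK cell genes), and Runx1, a factor of stem cells and lymphocytes alike, one of 0.026. The value for Runx1 was -0.034 when libraries were scaled by their size only, -0.0098 with a filter at a mean of 10 CPM and -0.67 with scaling on NK cell genes.

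Megakaryocyte and platelet genes formed a further list of 40, of which 36 could be tested and 23 were called lower (11.8% of all genes were) and 0 higher. DESeq2 called 22 lower and 0 higher. At an adjusted p under 0.05 alone 6 were higher, and at an unadjusted one 7. Their median log2-fold change was -1.71. Of the 13 genes with 10 CPM or more in wild-type, 6 were called lower, and of the 23 rarer ones 17 were. The share of all genes called lower depended on abundance too, with 424 of 8765 in a test limited to means of 10 CPM or more. It was not computed by wild-type level, so nothing is read from this split. The wild-type libraries alone took 11 of the genes past the filter on low counts, which favours genes lower in TNFR2 KO, and all 11 were called. When the test was limited to genes averaging 10 CPM or more, the median of the list turned to 0.25, and with a minimum of 1 CPM 13 genes were called lower.

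Nfe2, a transcription factor required for platelet release, fell from 18.0 ± 0.512 to 5.77 ± 0.747 CPM (SD, n = 2 each; log2-fold change -1.65, adjusted p = 9.89e-08, edgeR). The enzymes of thromboxane synthesis fell as well, Ptgs1 (cyclooxygenase 1) from 17.6 ± 0.724 to 4.83 ± 0.118 CPM and Tbxas1 (thromboxane A synthase, also a macrophage enzyme) from 17.8 ± 1.78 to 2.31 ± 0.133 CPM, with log2-fold changes of -1.87 and -2.94. Rgs10, a regulator of G protein signalling, had a log2-fold change of -1.15. Plek, which encodes the platelet protein kinase C substrate pleckstrin and is common to many leukocytes, was the most abundant gene of the list and measured 601 ± 12.4 CPM in wild-type and 760 ± 26.8 CPM with TNFR2 KO. Its log2-fold change of 0.34 turned to -0.35 with scaling on NK cell genes. Bin2, next in abundance, was at 0.07 on the log2 scale (adjusted p = 0.0668, edgeR), or -0.62 with that scaling.

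The genes of the platelet receptor for von Willebrand factor and of the collagen receptor are more particular to megakaryocytes, and they are named here after their values were seen. Gp1ba measured 0.975 and 0.895 CPM in wild-type and 0.0258 and 0.0936 CPM in TNFR2 KO libraries (log2-fold change -3.96, standard error 0.624). Gp5, Gp6 and Gp9 had log2-fold changes of -2.41, -3.59 and -2.22 and means of 1.08, 0.550 and 0.413 CPM in wild-type, and these 4 genes were called. They passed the filter on low counts through the wild-type libraries alone, so a difference was built into their being tested. Without TNFR2 KO replicate 1 or 2 the log2-fold change of Gp1ba was -3.26 or -5.00, and that of Gp5 was -1.77 or -3.34. The call of Gp9 was lost with DESeq2 (adjusted p = 0.111), without wild-type replicate 1 (0.236) or 2 (0.0751) and without TNFR2 KO replicate 1 (0.243). Gp1bb, the remaining subunit, was not called (log2-fold change 0.77, adjusted p = 0.174, edgeR), but was called higher without wild-type replicate 2 (1.49) or TNFR2 KO replicate 1 (1.20). Mmrn1 and Vwf were also named after their values were seen. Mmrn1, which encodes a platelet granule protein, had 0 counts in both TNFR2 KO libraries and 0.361 ± 0.0261 CPM in wild-type, at least 8.52-fold lower when 3 counts over both TNFR2 KO libraries are taken as the floor. Vwf, shared by megakaryocytes and endothelial cells, measured 2.21 and 2.96 CPM in wild-type and 0.594 and 0.842 CPM in TNFR2 KO libraries (log2-fold change -1.85, adjusted p = 0.000222, edgeR). F2rl2, Pdgfb, Itga2, Cd9 and Zfpm1 of the same list, also named after their values were seen, were higher and not called. F2rl2 measured 40.9 and 38.8 CPM in wild-type and 78.4 and 79.3 CPM in TNFR2 KO libraries (log2-fold change 0.98, adjusted p = 2.06e-09, edgeR). The others had log2-fold changes of 0.86, 0.53, 0.48 and 0.23, in the order named. Scaling on NK cell genes moved the median of all genes to -0.69.

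Proteins that act with the 9 gene products, such as the ligand of Kit, cofactors of GATA and MEIS1 and activators of integrins, made a list of 25, of which 8 also stood on the lists above. Of 23 tested, 7 were called lower (11.8% of all genes were) and 0 higher, while DESeq2 called 6 lower and 0 higher. Through the wild-type libraries alone 2 of the 23 passed the filter on low counts, and these 2 were among the 7. At an adjusted p under 0.05 alone 12 were higher, and at an unadjusted one 13. The median log2-fold change was 0.11 and became -0.59 with scaling on NK cell genes. Kitl, the ligand of Kit, fell from 4.84 ± 1.32 to 1.07 ± 0.162 CPM (SD, n = 2 each; log2-fold change -2.18, adjusted p = 1.18e-05, edgeR). Tal1, the partner of GATA factors, had a log2-fold change of -1.82, and Cxcr2, the receptor for PPBP on neutrophils and other cells, one of -1.94 (24.2 ± 0.063 to 6.27 ± 0.567 CPM). The integrin activators Tln1 (talin) and Rap1b, used by all leukocytes, were the most abundant and not called, with log2-fold changes of 0.27 and 0.13 that turned to -0.42 and -0.56 with scaling on NK cell genes.

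**Figure D4:**
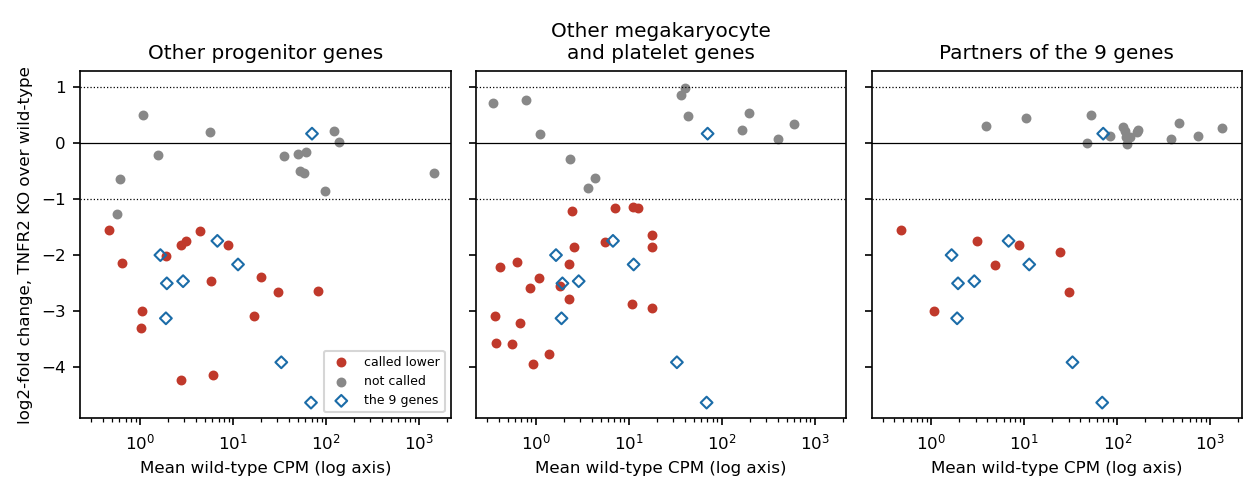
Change between genotypes (y axis, log2 of TNFR2 KO over wild-type CPM) against the mean wild-type expression in CPM (x axis, log scale) for tested genes of 3 lists, in red where called lower and in grey where not called; open diamonds are the 9 genes, repeated in each panel, dotted lines mark changes of 1 and Mmrn1 is drawn at its bound. Of the 23 genes called lower in the megakaryocyte list, 17 lie under 10 CPM on this axis.

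The libraries were checked against markers of NK cells and of other cell types that share genes with the 9, beside the 11.8% of all genes called lower and 1.56% called higher. All 20 NK cell markers were detected, and 3 were called higher in TNFR2 KO. Their log2-fold changes ran from 0.42 to 1.56, and their summed expression was 8121 to 8149 CPM in wild-type against 13115 to 13176 CPM in TNFR2 KO libraries. Il2rb, the most abundant, had a log2-fold change of 0.44 that turned to -0.25 with scaling on these same genes. Ly49H itself, encoded by Klra8 and named here after its values were seen, measured 313 and 316 CPM in wild-type and 762 and 725 CPM in TNFR2 KO libraries. Its log2-fold change of 1.24 was 0.55 with that scaling. Markers of mast cells or basophils, cells that use Kit, Gata1 and Gata2, summed to 1232 to 1234 CPM in wild-type and 99.1 to 99.6 CPM in TNFR2 KO libraries. Of these, 11 of the 12 tested were called lower, with a median log2-fold change of -4.57, and 1 higher, Cma1, named here after its values were seen. Through the wild-type libraries alone 2 of the 12 passed the filter on low counts, and these 2 were among the genes called lower. With scaling on NK cell genes Cma1 was at 0.999 and not called. The protease gene Prss34 led the list, with a mean of 589 CPM in wild-type against 8.10 CPM in TNFR2 KO. The log2-fold changes of Gata2 (-4.64) and Itga2b (-3.92) were the nearest to that median, and those of the other 6 lower genes lay between -3.13 and -1.75. Medians of other lists lay among these values too, -2.91 for macrophage or monocyte and -2.66 for neutrophil or granulocyte precursor markers. The eosinophil median was -5.14. Which cell types these changes came from was not tested.

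Eosinophil markers summed to between 39.4 and 40.9 CPM in wild-type and between 3.51 and 3.90 CPM in TNFR2 KO libraries. All 5 tested genes were called lower, and Epx, which encodes eosinophil peroxidase, had 0 counts in a TNFR2 KO library. Of these 5, 3 passed the filter on low counts through the wild-type libraries alone, so a difference was built into their being tested. The same held for 1 neutrophil or granulocyte precursor marker. Neutrophil or granulocyte precursor markers summed to 911 to 934 CPM in wild-type and 78 to 80.9 CPM in TNFR2 KO libraries, and 11 of 11 were called lower, led by Mpo. Macrophage or monocyte markers were called lower in 15 of 16 cases, with a median of -2.91 and sums of 2131 to 2151 CPM against 911 to 936 CPM, and the remaining one, Ccr2, the most abundant by the mean over all libraries, was at 0.78 on the log2 scale and not called.

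Erythroid markers, many of which are targets of GATA1, were called lower in 9 of 15 cases (11.8% of all genes were) with a median log2-fold change of -1.21, and the most abundant, Car2, had one of 0.98. Endothelial markers, whose cells express Kit ligand and CD34, were low, with sums of 10.6 to 11.1 CPM in wild-type and 3.75 to 3.90 CPM in TNFR2 KO libraries. Cldn5 and Robo4, named here after their values were seen, had 0 counts in every library, and 3 of 5 tested, Stab2 the most abundant, were called lower. Of dendritic cell markers 3 of 7 were called lower, Batf3 the most abundant among them. Through the wild-type libraries alone 2 dendritic cell markers passed the filter on low counts, 1 of them called lower. So did 1 endothelial marker, which was called lower. Of B or T cell markers 0 of 5 were called by edgeR or DESeq2, with 3 lower and 1 higher at an adjusted p under 0.05. Cd4, the most abundant, had a log2-fold change of -0.56, or -1.25 and a call with scaling on NK cell genes. The part of any of these cell types in the values of the 9 genes was not tested.

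**Figure D5:**
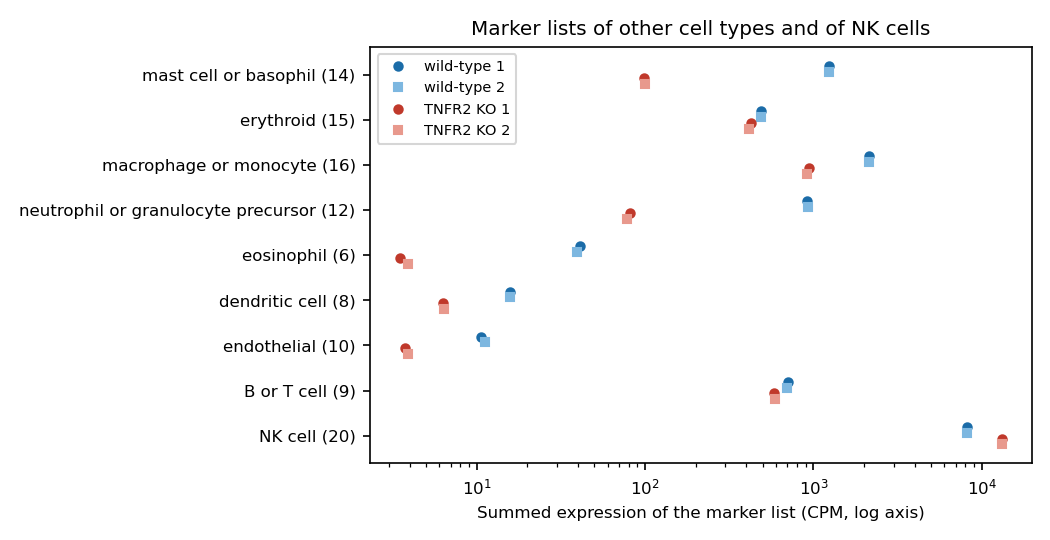
Summed expression of each marker list in each library, in CPM on a log axis, with the number of genes of the list in parentheses. Wild-type libraries lie to the right of TNFR2 KO libraries for every list except NK cell markers, with the widest gaps for mast cell or basophil, neutrophil and eosinophil markers.

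For each of the 9 genes, the most alike of 11805 other tested genes averaging 1 CPM or more was found by the root mean square distance between centred log2 CPM profiles over the 4 libraries. With so few libraries this measure mostly finds genes with an equal difference between genotypes. The nearest to Kit were Calhm6 (distance 0.0265) and Stx3 (0.0277), to Gata1 Creg1 (0.0161) and Ccnd1 (0.0172), and to Cd34 Adora2b (0.0165) and Alpk1 (0.0509). Adora2b was also nearest to Meis1 (0.0240), followed by Cyp27a1 (0.0355). Gata2 had no neighbour as close, with Gpr31c at 0.107 and Mmp14 at 0.151, and Itga2b was nearest to F10 (0.0562) and Tbc1d9 (0.0693), Pf4 to Laptm4b (0.0720) and C1rl (0.0800), and Ppbp to Nacc2 (0.0442) and Hap1 (0.0648). Itgb3 was nearest to Dnm2 (0.00284) and Arhgdib (0.00488).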

How the data were processed

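Poly-A RNA of sorted cells was sequenced as stranded, paired-end libraries. Per the study's methods and the submitters' processing notes, the authors trimmed reads with Trimmomatic (1.4), assigned them to mm10 transcripts with kallisto (0.46.1) and summed them per gene with Tximport. Which transcript annotation they used was not found in these sources. The deposited values are expected counts (estimated counts) per gene symbol, not scaled between libraries. A row without a gene name (0.0559% to 0.0728% of counts) was left out.

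Counts were rounded, filtered with filterByExpr, scaled with TMM and fitted in edgeR (4.0.16, under R 4.3.3) on genotype alone. Its quasi-likelihood test gave the p-values, adjusted by Benjamini-Hochberg. CPM are TMM-scaled. Standard errors are the log2-fold change over the square root of the F statistic. The study's methods name DESeq2, used here (1.42.0) as an alternative. An exact permutation test of 2 against 2 libraries cannot give a two-sided p under 0.333. Other alternatives were the scalings of DESeq2, the upper quartile, library size and NK cell genes, no filter or a mean of 1 or 10 CPM, the replicate number as a block, and each library left out. The steps were tested on simulated counts in which equal numbers of genes rose and fell. Most calls here were lower, so that test does not bear on the choice of scaling.

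Same-numbered libraries came from the same pooled spleens according to the labels, so the numbers pair the samples; their deviations from group means correlated at 0.0179 across genes.

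The 9 genes, the lists and the tests were chosen with earlier results of these data known. Genes named are the 9, Tnfrsf1b, the 4 most abundant called genes in each direction and the 2 most abundant uncalled genes of each list, the most abundant gene of each marker list and the 2 genes most alike to each of the 9; others are said to be named after their values were seen. Positions, lengths and shared 31-base stretches come from GENCODE M21 (GRCm38), start sites from RefSeq (GRCm38.p6). Poisson intervals (95%) used SciPy 1.17.1, and plots matplotlib 3.10.9. Protein sequences were not used here.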

Additional observations from a re-analysis of the deposited data

How the results depend on the processing

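The 8 lower genes kept their direction under every alternative in which they were tested. They also passed the thresholds in each of those that kept all 4 libraries. Nothing is read from this, because the genes were picked on this contrast in the same libraries. A filter at a mean of 10 CPM left only Gata2, Itga2b and Itgb3 of the 9, of which 2 were called lower, and it gave 424 lower and 56 higher genes in all, 3 lower genes in each of the progenitor and megakaryocyte lists, 2 in the list of partners, and a median of 0.25 for the megakaryocyte list; fewer genes are tested under it. A filter at a mean of 1 CPM left 13 lower megakaryocyte genes. Scaling on NK cell genes gave 3232 lower and 39 higher genes in all, turned the median of the partners to -0.59 and reversed Runx1 (-0.67), Plek (-0.35), Bin2 (-0.62), Tln1 (-0.42), Rap1b (-0.56), Itgav (-0.20) and Il2rb (-0.25), all shifted by the scaling itself; Ly6a (-1.22) and Cd4 (-1.25) became called and Cma1 (0.999) and Klra8 (0.55) lost their calls. Runx1 was also reversed with library size alone (-0.034) and with the filter at 10 CPM (-0.0098). With each library left out in turn, assuming the lone library of a genotype to vary like the others, the number of megakaryocyte genes called higher ranged from 0 to 2 (1 without wild-type replicate 1 or 2, 2 without TNFR2 KO replicate 1); the lowest and highest log2-fold changes were -2.20 and -2.13 for Kit, -2.71 and -2.28 for Cd34, -3.36 and -2.90 for Pf4 and -2.23 and -1.71 for Ppbp. With the replicate number as a block, pairing libraries of the same pool, 8 of the 9 genes were called lower, as without it. In that fit 1616 of 13822 tested genes were called lower, among them 15 progenitor, 23 megakaryocyte and 6 partner genes. Meis1, Pf4, Ppbp and Cd34, with 7 to 23 counts in each TNFR2 KO library, are limited by depth.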
